A study of Homo sapiens with 6 samples.

Results

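The plasminogen activation system and its serpins were described in the human cell line KYSE150, which was established from an esophageal squamous cell carcinoma, as 9 genes taken by name from the 67140 gene identifiers of the deposited table. They are PLAU, PLAT, PLAUR and ST14 on the side of the proteases and their receptor, and SERPINE2, SERPINB1, SERPINB2, SERPINB5 and SERPINB8 among the serpins. All 9 passed the filter on low counts, which left 19254 genes to be tested. RNA was sequenced from 3 samples of cells with the control hairpin (shCtrl) and 3 samples of cells with a hairpin against the lncRNA AC007128.1 (shAC007128.1). Both groups were KYSE150 cells grown in RPMI medium with fetal bovine serum. The methods describe lentiviral delivery and puromycin selection, while the labels speak of transfection and their treatment text names shAC007128.1 for every sample, so groups follow the sample names. The design has 1 hairpin and 1 control, and nothing in the labels tells whether the 3 samples of a group were separate cultures, so p-values measure only the spread between these samples, which may be technical.

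Urokinase (PLAU) and tissue plasminogen activator (PLAT) cut plasminogen to plasmin, a protease that digests fibrin and other matrix proteins. The receptor uPAR (PLAUR) holds urokinase at the cell surface, and matriptase (ST14), a membrane serine protease of epithelia, can activate pro-urokinase. Serpins are suicide inhibitors that trap serine proteases. SERPINB2 (PAI-2) acts on the plasminogen activators, and SERPINE2 (protease nexin-1) acts on thrombin as well. Clade B serpins are mostly intracellular and are strongly expressed in squamous epithelium.

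Total counts were 55764405 to 78610457 per sample. The floor for reading a level in a sample was set at 3 counts, although smaller counts occur. It corresponds to 0.0373 to 0.0546 CPM (counts scaled to a common library size with edgeR's TMM factors). That limit covers counting error only. The 8 squamous epithelial markers examined, KRT5, KRT14 and TP63 among them, were all tested, with a summed level of 1851 to 1890 CPM in shCtrl and 2643 to 3186 CPM in shAC007128.1 samples. Of these markers 5 passed as higher, KRT6A (34.9 ± 2.28 to 192 ± 20.2 CPM, SD, n = 3) and KRT14 (59.9 ± 2.48 to 291 ± 32.1 CPM) among them, 1 passed as lower, DSG3 (203 ± 5.76 to 95.4 ± 9.19 CPM), and 2 did not pass, TP63 with a log2 fold change of -0.27 and KRT17 with 0.45. The 6 leukocyte markers summed to 62.3 to 71.9 and 18.2 to 27.8 CPM, most of it CD68 (63.8 ± 4.47 and 17.5 ± 5.27 CPM, SD, n = 3). CSF1R was at 3.51 ± 0.40 and 3.45 ± 0.57 CPM and CD3E at 0.463 ± 0.246 and 0.707 ± 0.294 CPM, and neither passed. PTPRC and LYZ were at or near 0. CD68 shares 85.6% of its exonic bases with other annotated genes, so the leukocyte sum rests largely on bases whose reads are uncertain. The 6 fibroblast markers summed to 15.3 to 16.1 and 20.9 to 23.9 CPM, with COL1A2, COL3A1 and DCN below the filter. Of the others, COL1A1 (13.9 to 17.5 CPM) and LUM (1.07 to 4.71 CPM) passed as higher and PDGFRB (0.47 to 0.15 CPM) as lower. The 4 endothelial markers summed to 2.12 to 3.11 and 0.302 to 2.02 CPM. The part of these leukocyte, fibroblast and endothelial markers in the results was not tested. AC007128.1 itself (listed as ENSG00000229970) had counts of 69, 33 and 53 in shCtrl and 18, 37 and 15 in shAC007128.1 replicates 1, 2 and 3, so the groups overlapped. Its log2 fold change was -0.77 ± 0.51 (adjusted p = 0.271 in edgeR). Here and for later fold changes, ± gives the SE, a standard error worked back from the fold change and the F statistic of edgeR's test. A reduction of the target was not detected, but with counts this few the test could miss one. The paper reports by qPCR that its hairpin lowered AC007128.1 RNA, which was not measured here. The groups are therefore named by their labels throughout.

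Between shAC007128.1 and shCtrl cells the receptor gene PLAUR rose most among the 9 genes, by 2.16 times, and ST14, SERPINB5 and PLAT rose by 1.37 to 1.48 times. SERPINB8, SERPINB2 and SERPINE2 fell to 52.5%, 63.3% and 68.5% of control. PLAU, the activator itself, and SERPINB1 did not pass the test. Thus 4 of the 9 passed as higher and 3 as lower in edgeR's quasi-likelihood test (Benjamini-Hochberg adjusted p up to 0.05), against 21.0% and 19.8% of all genes tested. With the study's further limit, a change of 1 or more on the log2 scale, written as called from here on, PLAUR was called higher (5.57% of all genes tested were) and 0 members were called lower (10.1% of all genes tested were). At an unadjusted p under 0.05 edgeR had 5 members higher and 3 lower, and DESeq2 and limma-voom also called 0 lower. In all 9 genes the samples of the groups did not overlap, with 5 higher and 4 lower, where 27.0% and 28.2% of all genes tested were apart in these directions. The median log2 fold change of the members was 0.18, beside -0.02 for all genes tested. Scaling by upper quartiles shifted the median of all genes by -0.14 and turned the direction of none of the 9. In bulk RNA, fewer cells with a transcript and less of it per cell cannot be told apart.

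**Figure D1:**
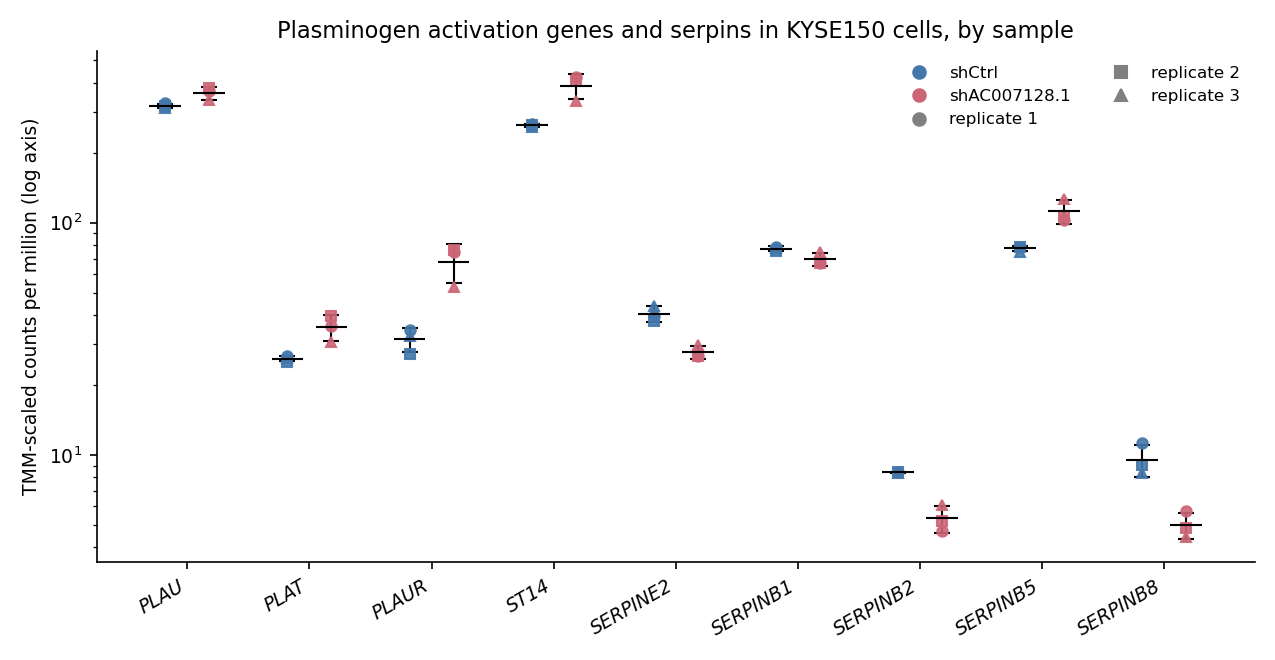
TMM-scaled CPM (log axis) of the 9 genes in each of the 3 shCtrl (blue) and 3 shAC007128.1 (red) samples; symbols mark the replicate, black lines the group mean and bars the SD. PLAUR lies between 27.3 and 34.4 CPM in shCtrl and between 52.7 and 76.1 CPM in shAC007128.1 samples, while the PLAU levels of the groups lie close together.

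The promoters of PLAUR, the member that was called, and of the 3 members on chromosome 18, of which 1 rose and 2 fell, are shown so that their sequence can be read beside their values. RefSeq sequences (GRCh38.p14) of 250 bases before to 50 bases after the gene start were found for 7 of the 9 members, of which 4 are printed: PLAUR (chr19:43670120-43670419, minus strand), SERPINB8 (chr18:63969831-63970130, plus strand), SERPINB2 (chr18:63887455-63887754, plus strand) and SERPINB5 (chr18:63476708-63477007, plus strand). Each reads 5′ to 3′ on the gene's strand, and capitals mark matches, on either strand, to TGACTCA (the AP-1 site), GGGCGG (the GC box), TATAAA (the TATA box) and CCGGAA (an ETS core).
PLAUR: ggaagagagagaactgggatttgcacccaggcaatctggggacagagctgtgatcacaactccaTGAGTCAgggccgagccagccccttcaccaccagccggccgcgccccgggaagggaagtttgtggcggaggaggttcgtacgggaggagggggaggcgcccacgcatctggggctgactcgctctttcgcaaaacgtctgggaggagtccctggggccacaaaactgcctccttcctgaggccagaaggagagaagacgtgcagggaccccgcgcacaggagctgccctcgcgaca
SERPINB8: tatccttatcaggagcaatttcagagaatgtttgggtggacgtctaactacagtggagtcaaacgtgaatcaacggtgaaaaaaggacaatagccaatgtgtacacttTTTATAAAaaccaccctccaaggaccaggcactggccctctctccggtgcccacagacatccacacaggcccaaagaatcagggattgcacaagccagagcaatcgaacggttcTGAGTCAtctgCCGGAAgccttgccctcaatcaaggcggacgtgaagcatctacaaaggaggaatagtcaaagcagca
SERPINB2: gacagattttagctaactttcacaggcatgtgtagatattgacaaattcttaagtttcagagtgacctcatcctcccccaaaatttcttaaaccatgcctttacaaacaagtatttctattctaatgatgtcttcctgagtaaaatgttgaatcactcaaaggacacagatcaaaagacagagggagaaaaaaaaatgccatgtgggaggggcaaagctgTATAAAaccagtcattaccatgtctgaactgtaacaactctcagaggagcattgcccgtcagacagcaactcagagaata
SERPINB5: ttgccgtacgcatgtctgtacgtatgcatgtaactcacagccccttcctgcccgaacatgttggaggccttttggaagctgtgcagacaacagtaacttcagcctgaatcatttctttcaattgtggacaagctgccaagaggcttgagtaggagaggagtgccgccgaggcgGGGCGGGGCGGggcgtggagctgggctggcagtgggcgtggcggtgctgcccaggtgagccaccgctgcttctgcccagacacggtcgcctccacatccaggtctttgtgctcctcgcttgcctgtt
PLAUR holds a TGACTCA match on the opposite strand, printed as its reverse complement, whose leftmost base lies at -186 (-1 is the base before the start), and SERPINB8 holds one, also on the opposite strand, at -28. Of 27305 promoters of this length, 4.92% hold that match. SERPINB2 has TATAAA at -30 on the gene's strand (12% of promoters hold this match on either strand). SERPINB8 has overlapping matches at -142, on the opposite strand, and at -140, on the gene's strand. SERPINB5 has overlapping GGGCGG matches at -77 and -72 (44.6% of promoters). SERPINB8 also has CCGGAA at -17 (17.6% of promoters). The RefSeq start used here lies inside the GENCODE gene for PLAUR, SERPINB8 and SERPINB2, so these windows are those of inner starts, while that of SERPINB5 is at the GENCODE start. The share of G and C was 39.0% in SERPINB2, 48.7% in SERPINB8, 59.7% in SERPINB5 and 64.0% in PLAUR, where the median of all promoters was 58.3%. These are descriptions of letters in a window, and binding was not measured here.

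Among the activators, PLAU (ENSG00000122861, chromosome 10, 73909177 to 73917496 on hg38) had the highest level of the 9 genes per kilobase of merged exons, in both groups. It stood at 326, 317 and 311 CPM in shCtrl and 367, 379 and 336 CPM in shAC007128.1 replicates 1, 2 and 3. The shAC007128.1 samples were all above the shCtrl samples, but the lowest of them, replicate 3, lay close to the highest shCtrl sample. The log2 fold change was 0.18 ± 0.07 (SE; adjusted p = 0.0666 in edgeR), so a difference was not detected. Without shAC007128.1 replicate 3 it was 0.22 (edgeR adjusted p = 0.00473), with upper-quartile scaling 0.04, and the adjusted p over all alternatives was 0.00473 to 0.644. Of PLAU's 2949 exonic bases, 31.0% are shared with C10orf55 on the opposite strand, and the use of strand in the counting is not given in the sources used here. C10orf55 itself was at 3.51 to 5.39 CPM over all samples. In levels centred on each gene's mean over the 6 samples, the protein-coding genes nearest to PLAU were ATP6V1G1, TMEM50A and FASTK, at Euclidean distances of 0.044, 0.052 and 0.054 in log2 CPM among 13590 genes compared.

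PLAT (ENSG00000104368, chromosome 8, 42174718 to 42207709), the second activator, was at 26.6, 25.2 and 26.1 CPM in shCtrl and at 36.0, 39.8 and 30.7 CPM in shAC007128.1 replicates 1, 2 and 3. Every shAC007128.1 sample was higher, replicate 3 the least. Its log2 fold change was 0.45 ± 0.11 (SE; adjusted p = 0.017 in edgeR). The test was no longer passed without shCtrl replicate 1, 2 or 3, without shAC007128.1 replicate 2, or with upper-quartile scaling, with an adjusted p of 0.0025 to 0.0674 over all alternatives. Without these samples the log2 fold change was 0.47, 0.43, 0.45 and 0.36. The log2 ratio of PLAU to PLAT per kilobase of merged exons, taken within each sample, was 5.01 ± 0.04 (SD, n = 3) in shCtrl samples. It was 4.75 ± 0.10 in shAC007128.1 samples, so by this length PLAU exceeded PLAT by 32.3 and 26.9 times. With the length of the canonical transcript the log2 ratios were smaller, 4.0 and 3.74.

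PLAUR (ENSG00000011422, chromosome 19, 43646095 to 43670547) was at 34.4, 27.3 and 32.5 CPM in shCtrl and at 75, 76.1 and 52.7 CPM in shAC007128.1 replicates 1, 2 and 3. The lowest shAC007128.1 sample, replicate 3, was still above the highest shCtrl sample. The log2 fold change was 1.11 ± 0.16 (SE; adjusted p = 0.00165 in edgeR), and leaving out single samples gave 1.02 to 1.26. With upper-quartile scaling it was 0.97, which ends the call but not the test. The log2 ratio of PLAU to PLAUR per kilobase was 3.94 ± 0.17 (SD, n = 3) in shCtrl and 3.02 ± 0.21 in shAC007128.1 samples, that is, PLAU exceeded PLAUR per kilobase by 15.4 times in shCtrl and by 8.12 times in shAC007128.1 samples. These ratios are descriptions with no test. With the length of the canonical transcript in place of merged exons, the log2 ratios were 2.57 and 1.65, with the same difference.

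ST14 (ENSG00000149418, chromosome 11, 130159782 to 130210362), the matriptase gene, was at 265, 263 and 259 CPM in shCtrl replicates 1, 2 and 3. In shAC007128.1 replicates 1, 2 and 3 it was at 423, 408 and 333 CPM. The shCtrl samples lay close together, and all shAC007128.1 samples were higher, replicate 3 the least. The log2 fold change was 0.56 ± 0.10 (SE; adjusted p = 0.00317 in edgeR). SPINT1, the gene of the Kunitz inhibitor HAI-1 that holds matriptase in check, was at 133 ± 3.42 CPM (SD, n = 3) and 118 ± 7.48 CPM and did not pass (log2 fold change -0.18, edgeR adjusted p = 0.0931). The log2 ratio of ST14 to SPINT1 per kilobase was 0.73, 0.78 and 0.76 in shCtrl and 1.55, 1.56 and 1.38 in shAC007128.1 samples. Of all pairs of members, ST14 and PLAT had the most alike levels over the 6 samples after centring, at a distance of 0.206 in log2 CPM.

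SERPINE2 (ENSG00000135919, chromosome 2, 223975045 to 224039318), protease nexin-1, was at 39.7, 37.7 and 44 CPM in shCtrl and at 26.6, 26.7 and 29.8 CPM in shAC007128.1 replicates 1, 2 and 3. No shAC007128.1 sample reached the shCtrl range. The log2 fold change was -0.55 ± 0.10 (SE; adjusted p = 0.0042 in edgeR), and SERPINE2 passed under each alternative run.

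The clade B serpins lie in 2 groups in the genome, 10 genes over 542.8 kb of chromosome 18 and 3 over 139.8 kb of chromosome 6. Within the chromosome 18 group SERPINB5, the first gene by position, rose, and SERPINB13, SERPINB3, SERPINB7, SERPINB2 and SERPINB8 fell, SERPINB3 from few counts. Of the 13 clade B genes, 9 were tested. Of these 9, 1 passed as higher, against 21.0% of all genes tested, and 6 as lower, against 19.8%. The other 2 did not pass. SERPINB5 was thus the 1 gene of the clade that passed as higher.

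SERPINB5 (ENSG00000206075, chromosome 18, 63476958 to 63505085), maspin, a serpin that does not inhibit proteases in the usual way, was at 78.6, 78.7 and 75 CPM in shCtrl replicates 1, 2 and 3. It was at 102, 107 and 126 CPM in shAC007128.1 replicates 1, 2 and 3. The groups did not overlap, and replicate 3, the lowest shAC007128.1 sample for PLAUR and ST14, was the highest for SERPINB5. Its log2 fold change was 0.53 ± 0.10 (SE; adjusted p = 0.00426 in edgeR).

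SERPINB2 (ENSG00000197632, chromosome 18, 63871692 to 63903888), the intracellular inhibitor PAI-2, was at 8.46, 8.45 and 8.36 CPM in shCtrl and at 4.70, 5.19 and 6.11 CPM in shAC007128.1 replicates 1, 2 and 3. The shCtrl samples were nearly equal, and the highest shAC007128.1 sample lay below them. Its log2 fold change was -0.66 ± 0.15 (SE; adjusted p = 0.0109 in edgeR). Of SERPINB2's exonic bases, 20.0% are shared with ENSG00000289724, an annotated gene that has no counts of its own here. SERPINB8 (ENSG00000166401, chromosome 18, 63970029 to 64019779), which can inhibit the proprotein convertase furin, was at 11.2, 9.05 and 8.33 CPM in shCtrl and at 5.71, 4.86 and 4.44 CPM in shAC007128.1 replicates 1, 2 and 3. All shAC007128.1 samples were lower. The log2 fold change of -0.93 ± 0.18 (SE; adjusted p = 0.00509 in edgeR) was the largest fall of the 9 and stood just short of the limit for a call. It passed that limit without shCtrl replicate 3 (-1.02), without shAC007128.1 replicate 1 (-1.04), with library size only (-1.0) and with upper-quartile scaling (-1.07). SERPINB8 shares 9.1% of its exonic bases with other genes, of which HMSD had at most 0.109 CPM.

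SERPINB1 (ENSG00000021355, chromosome 6, 2832332 to 2841959), the inhibitor of neutrophil elastase, was at 78.6, 75.2 and 78.1 CPM in shCtrl and at 67.2, 67.0 and 75.1 CPM in shAC007128.1 replicates 1, 2 and 3. The groups nearly touched, since shAC007128.1 replicate 3 lay just under shCtrl replicate 2. The log2 fold change was -0.15 ± 0.08 (SE; adjusted p = 0.181 in edgeR), and a difference was not detected. Without shAC007128.1 replicate 3 it was -0.21 (edgeR adjusted p = 0.022), and with upper-quartile scaling -0.29 (edgeR adjusted p = 0.0274); over all alternatives the adjusted p was 0.022 to 0.398. Chi-square differences between replicates per gene were also larger for shAC007128.1 replicate 3 (118 and 150 against replicates 2 and 1) than between any other pair of replicates of a group (49.7 to 59.2).

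**Figure D2:**
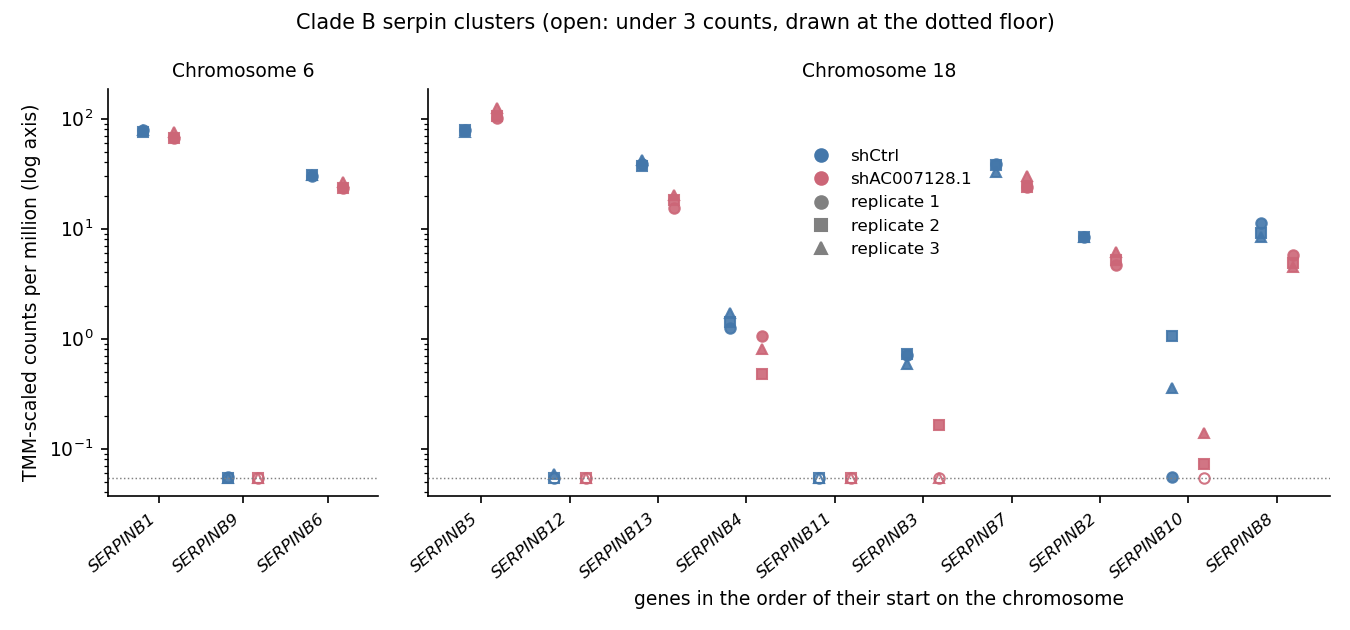
TMM-scaled CPM (log axis) of the 13 clade B serpin genes in each sample, in the order of their start on chromosomes 6 and 18; open symbols on the dotted line are samples under 3 counts. SERPINB5 is higher in all shAC007128.1 samples (102 to 126 CPM) than in shCtrl samples (75 to 78.7 CPM), while SERPINB13, SERPINB7, SERPINB2 and SERPINB8 are lower in all shAC007128.1 samples.

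Of the 9 clade B genes that are not members, 5 were tested. Of these, 0 passed as higher and 4 as lower in edgeR's test, against 21.0% and 19.8% of all genes tested. DESeq2 and limma-voom also had 0 higher and 4 lower, and at an unadjusted p under 0.05 edgeR had 0 higher and 5 lower. SERPINB13, whose product inhibits lysosomal cathepsins, was at 39.2 ± 2.51 CPM (SD, n = 3) in shCtrl and 18.1 ± 2.55 CPM in shAC007128.1 samples, with a log2 fold change of -1.11 ± 0.13 (SE; adjusted p = 0.000529 in edgeR). SERPINB7 was at 36.7 ± 3.22 and 26.0 ± 3.70 CPM and SERPINB6 at 30.5 ± 0.333 and 24.5 ± 1.91 CPM. SERPINB3 had 52, 58 and 40 counts in shCtrl and 0, 9 and 0 in shAC007128.1 samples, and it is nearly identical to SERPINB4, so the split of reads between them is uncertain. The number past the test in this list was 1 to 3 with single samples left out, and 1 when shCtrl replicate 1 or 2 was the one.

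Per kilobase of merged exons, the levels in shCtrl samples ran from PLAU (108 ± 2.52, SD, n = 3) and ST14 (63.7 ± 0.780) through SERPINB1 (25.4 ± 0.608), SERPINB5 (20.7 ± 0.557) and PLAUR (7.05 ± 0.828) down to SERPINE2 (4.52 ± 0.360), PLAT (3.34 ± 0.0881), SERPINB2 (3.07 ± 0.0209) and SERPINB8 (1.65 ± 0.261), all in CPM per kilobase. In shAC007128.1 samples PLAU was at 122 ± 7.45, ST14 at 94.2 ± 11.8, SERPINB5 at 29.9 ± 3.44, SERPINB1 at 22.9 ± 1.52 and PLAUR at 15.2 ± 2.96 CPM per kilobase. SERPINB5 was thus below SERPINB1 in shCtrl and above it in shAC007128.1 samples. At the low end, PLAT was at 4.57 ± 0.593, SERPINE2 at 3.09 ± 0.202, SERPINB2 at 1.95 ± 0.261 and SERPINB8 at 0.868 ± 0.112 CPM per kilobase. PLAT and SERPINE2 changed places in the same way. This order depends on the length used: by canonical transcripts, PLAUR (49.7) stood above SERPINB5 (43.2) in shAC007128.1 samples and SERPINE2 (12.4) stayed above PLAT (11.6).

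Within the sum of the 5 member serpins per kilobase, the share of SERPINB5 was 37.3%, 38.5% and 36.4% in shCtrl and 49.6%, 50.7% and 52.2% in shAC007128.1 replicates 1, 2 and 3. The share of SERPINB1 was 45.9% ± 0.66 (SD, n = 3) and 39.1% ± 1.0. SERPINE2 had 8.17% ± 0.65 and 5.28% ± 0.13, SERPINB2 5.56% ± 0.09 and 3.31% ± 0.17, and SERPINB8 2.99% ± 0.43 and 1.5% ± 0.31. The share of SERPINE2 depends on the length used, with 20.97% and 14.13% by canonical transcripts. SERPINB5 was therefore the only one of the 5 with a larger share in shAC007128.1 samples, a direction kept with canonical transcript lengths (34.6% and 49.0%). Shares of 1 sum are tied to each other, and they are given with no test.

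**Figure D3:**
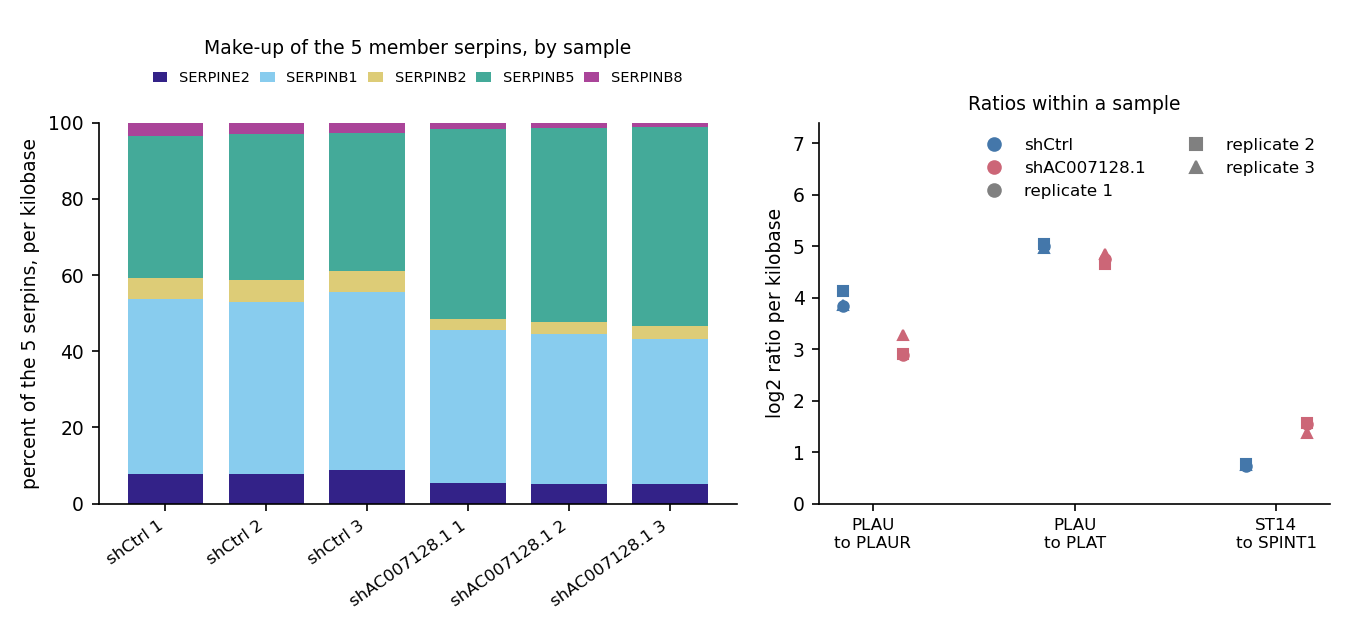
Left, stacked bars of the share in percent of each of the 5 member serpins in their sum per kilobase, 1 bar a sample; right, log2 ratios of levels per kilobase for 3 gene pairs, 1 point a sample (shCtrl blue, shAC007128.1 red, symbols for the replicate). SERPINB5 takes 36.4% to 38.5% in shCtrl and 49.6% to 52.2% in shAC007128.1 samples, and the PLAU to PLAUR ratio is lower and the ST14 to SPINT1 ratio higher in every shAC007128.1 sample.

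The genes around the members were taken from lists of the same pathway. The counts of each list below stand beside 21.0% of all genes tested that passed as higher and 19.8% that passed as lower. Plasminogen itself (PLG) was listed at 0 in every sample. The cathepsin gene CTSL, which most cells use, was also listed at 0 in every sample, so a 0 in this table may come from the counting and is not read as a missing transcript. Of the 14 genes for plasminogen, its other inhibitors and contact activators, 4 were tested, with 0 higher and 3 lower in edgeR's test, and the same counts at an unadjusted p under 0.05, in DESeq2 and in limma-voom. F12, the contact activator factor XII, was at 23.7 ± 1.78 CPM (SD, n = 3) in shCtrl and 11 ± 2.42 CPM in shAC007128.1 samples (log2 fold change -1.11), and SERPINF2, the plasmin inhibitor, at 2.55 ± 0.126 and 1.38 ± 0.411 CPM (log2 fold change -0.89).

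Of the 12 docking and clearance receptors, 11 were tested, 8 passed as higher and 1 as lower, with a median log2 fold change of 0.54. At an unadjusted p under 0.05 these were also 8 and 1, and 0 were called by edgeR, DESeq2 or limma-voom. ANXA2, which docks plasminogen and tissue plasminogen activator at the cell surface, was at 854 ± 6.08 CPM (SD, n = 3) in shCtrl and 1237 ± 45.0 CPM in shAC007128.1 samples. The endocytic receptors that clear activator and inhibitor complexes rose as well, LRP1 from 163 ± 4.86 to 261 ± 13.1 CPM, SORL1 from 147 ± 1.19 to 221 ± 6.07 CPM and VLDLR from 15.6 ± 0.666 to 27.7 ± 3.19 CPM. PLGRKT, a plasminogen receptor named after its values were seen, was the 1 that fell, from 184 ± 1.99 to 138 ± 2.41 CPM. The number that passed as higher was 5 with upper-quartile scaling and also 5 without shCtrl replicate 1 or 3.

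Among 9 tested coagulation genes, 3 passed as higher and 3 as lower. F3, tissue factor, fell from 628 ± 2.78 CPM (SD, n = 3) to 252 ± 16.1 CPM (log2 fold change -1.31, edgeR adjusted p = 2.95e-05). F2RL1, the receptor PAR2 that matriptase can cleave, rose from 102 ± 2.15 to 159 ± 20.7 CPM (log2 fold change 0.64), and PROS1, protein S, from 39.7 ± 7.92 to 72.3 ± 4.65 CPM. Among 7 tested serpins of other clades, 1 passed as higher and 3 as lower, with SERPINH1, a collagen chaperone, at 94.8 ± 2.63 and 135 ± 22.2 CPM and SERPINA1 at 4.06 ± 0.461 and 1.88 ± 0.387 CPM.

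Among the 15 tested membrane serine proteases, Kunitz inhibitors and HGF pathway genes, the list nearest to ST14 and SPINT1, 2 passed as higher and 4 as lower. PRSS22 was at 18.3 ± 0.719 CPM (SD, n = 3) and 43.9 ± 10.6 CPM, and TMPRSS11E at 10.0 ± 0.250 and 21.9 ± 4.68 CPM. MET, the receptor of HGF, fell from 339 ± 2.70 to 268 ± 20.1 CPM (log2 fold change -0.34). TMPRSS6 had 47, 51 and 62 counts in shCtrl and 0, 4 and 4 in shAC007128.1 samples. The number that passed as lower was 2 without shAC007128.1 replicate 2 or any 1 of the shCtrl replicates.

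Of 8 tested kallikrein genes and their inhibitors, 3 passed as higher and 1 as lower. KLK5, a kallikrein of the epidermis, rose from 42.5 ± 2.83 to 113 ± 16.5 CPM (SD, n = 3; log2 fold change 1.41), while SLPI, a secreted inhibitor of leukocyte elastase, fell from 17.9 ± 2.27 to 4.90 ± 0.232 CPM (log2 fold change -1.87). SPINK6, another inhibitor in this list, which acts on kallikreins, passed as higher, with 0, 8 and 3 counts in shCtrl and 38, 63 and 35 in shAC007128.1 samples. KLK6 rose from 1.21 ± 0.168 to 2.30 ± 0.298 CPM. Of the exonic bases, 20.5% in KLK6 and 12.2% in KLK5 are shared with lncRNA genes on the opposite strand, and the strand setting is not known. Of 12 tested proteases that clade B serpins and their relatives meet, 5 passed as higher and 5 as lower. The cathepsins CTSV (32.8 ± 0.686 to 80.1 ± 6.50 CPM) and CTSB (71.2 ± 4.0 to 147 ± 17.0 CPM) and the convertase PCSK5 (24.2 ± 1.31 to 59.8 ± 0.955 CPM) rose. CTSD, of which 48.0% of the exonic bases are shared with other genes, rose from 144 ± 18.1 to 332 ± 85.5 CPM. Named after their values were seen, FURIN (101 ± 4.25 to 68.2 ± 9.71 CPM, log2 fold change -0.57), PCSK6 (15.5 ± 1.29 to 9.53 ± 1.35 CPM) and CTSH (76.9 ± 4.78 to 54.7 ± 3.77 CPM) were among the 5 that fell. The number that passed as lower in this list was 3 without shCtrl replicate 2 or 3.

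PLAUR belongs to the LY6 family of 3-finger proteins, and of 9 tested relatives 3 passed as higher and 0 as lower (1 lower at an unadjusted p under 0.05 in edgeR, and 0 in DESeq2 and limma-voom). LYPD1 rose from 2.89 ± 0.517 to 15.5 ± 1.74 CPM (SD, n = 3; log2 fold change 2.42), CD59, the cell-surface inhibitor of complement, from 96.0 ± 14.0 to 188 ± 26.1 CPM and LYPD3 from 14.0 ± 0.936 to 20.4 ± 3.18 CPM. LYPD1 shares 29.7% of its exonic bases with GPR39 on the opposite strand, and without a known strand setting their reads cannot be told apart there. The median log2 fold change of these relatives was -0.14, and the number that passed as lower was 2 with upper-quartile scaling.

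**Figure D4:**
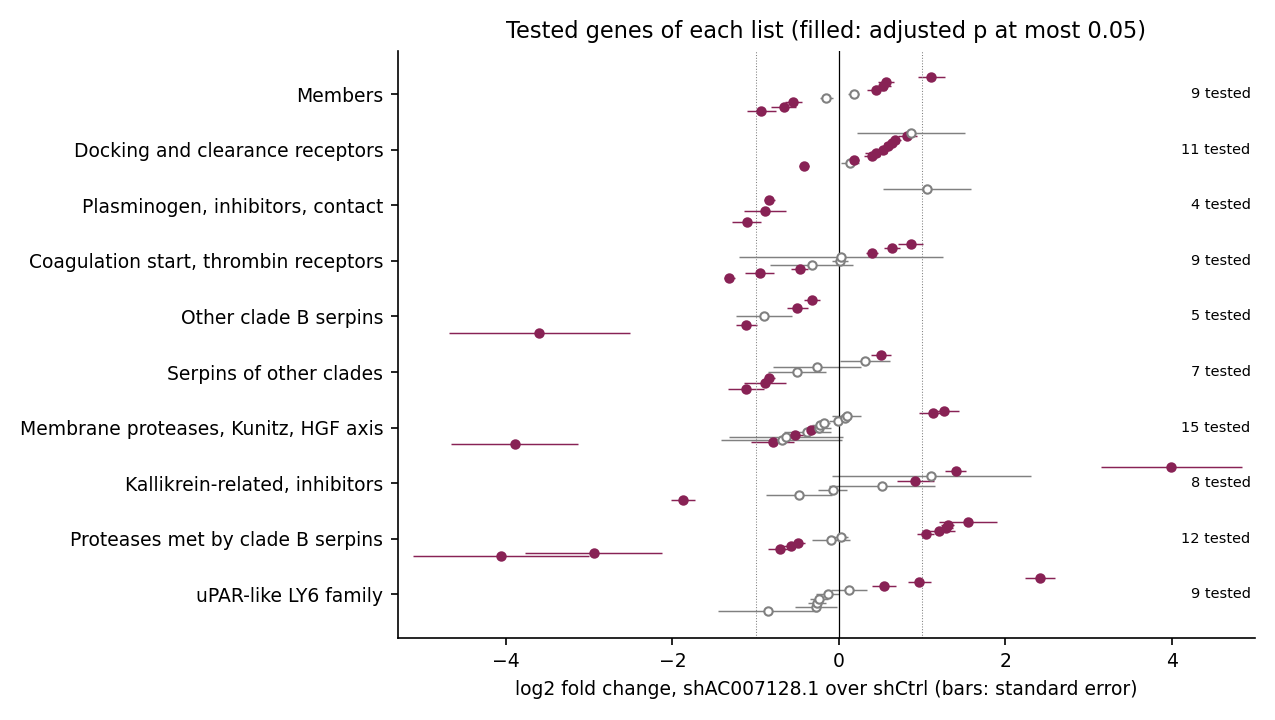
Log2 fold change (shAC007128.1 over shCtrl, horizontal axis) of each tested gene by list, with bars for the standard error, filled where the adjusted p was at most 0.05; dotted lines mark 1 and -1, the limit for a call. Of the members, PLAUR lies past the dotted line, and the 5 tested clade B genes that are not members all lie below 0.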

How the data were processed

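RNA-seq of 6 KYSE150 samples (3 shCtrl, 3 shAC007128.1) was taken from 1 table of whole-number expected counts per Ensembl gene, which the authors deposited. The submitters' processing notes name CASAVA 1.8, TopHat2 2.0.6 and the builds GRCh38 and mm10. The counting program, the annotation release and the use of strand are not given in the sources used here. Low counts pile up at 4 (761, 1355 and 993 genes had a count of 3, 4 and 5 in shCtrl replicate 1), so the values may not be plain read counts. They were already whole and needed no rounding.

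Of 67140 identifiers, 60357 were found in GENCODE release 44 (hg38), which gave symbols, positions and exon lengths. The 9 members and the gene lists were chosen with earlier results of these data known. Genes were filtered with edgeR's filterByExpr, scaled by TMM (factors 0.967 to 1.042) and tested with edgeR's quasi-likelihood test on the 6 samples with Benjamini-Hochberg adjustment over 19254 genes (edgeR 4.0.16, R 4.3.3). Log2 CPM values used a prior count of 2. Named genes were the members, AC007128.1, SPINT1, up to 4 tested genes of smallest p from each list, and the 3 protein-coding genes nearest to PLAU; others are said to be chosen after their values were seen. Some genes that the rule names are not reported here. In data simulated for the same comparison with 18609 genes, edgeR called 191 of 200 changed and 11 of 18409 unchanged genes. The planted changes were larger than that of any member and lay only in genes with more counts than AC007128.1. This recovery therefore does not tell how often smaller changes, or changes in genes with few counts, would be missed.

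Replicates of a group differed by more than sampling noise, so none was counted as a duplicate. Same-numbered samples of the 2 groups did not deviate together (r of 0.031, -0.025 and -0.03), so the numbers were not taken as pairs. Alternatives were DESeq2 1.42.0, limma-voom (limma 3.58.1), other scalings, other filters, counts divided by 4, no limit on fold change, a replicate block and each sample left out. Canonical transcript length and the counts past the test under each alternative were added after seeing the data. Promoters came from RefSeq. The number of columns of samples that could not be mapped was 0. Figures were drawn with matplotlib 3.10.9, and numpy 2.4.6 and pandas 2.3.3 were used for tables.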

Additional observations from a re-analysis of the deposited data

How the results depend on the processing

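Over 15 alternatives, 0 of the 9 members changed direction, and PLAUR, ST14, SERPINE2, SERPINB2, SERPINB5 and SERPINB8 stayed past the test in each. For the rest the cause was not tested. PLAU (0.18) was 0.148 to 0.221 with a sample left out and passed without shAC007128.1 replicate 3. PLAT (0.45) did not pass with upper-quartile scaling (0.31) and was 0.363 to 0.538 with a sample left out. SERPINB1 (-0.15) passed with upper-quartile scaling (-0.288) and was -0.213 to -0.116 with a sample left out. AC007128.1 was -1.289 to -0.513 with a sample left out.

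With no limit on fold change, called genes were 4041 higher and 3820 lower, and members 4 and 3. Docking receptors were then 8 and 1, coagulation genes 3 and 3, and serpins of other clades 1 and 3. Membrane proteases were 2 and 4, kallikreins 3 and 1, and proteases met by clade B serpins 5 and 5. Plasminogen and inhibitor genes were 3 lower, other clade B serpins 4 lower and LY6 relatives 3 higher, each with 0 the other way. With upper-quartile scaling, 770 of all 19254 genes tested were called higher and 2366 lower, against 1073 and 1945 in the main test. Called members were then 0 higher and 1 lower, plasminogen and inhibitor genes, coagulation genes and serpins of other clades 2 lower each, and membrane proteases 1 higher. Docking receptors past the test were 5 higher and LY6 relatives 2 lower. With library size only, 899 genes were called higher and 2146 lower, 1 member and 2 coagulation genes among the lower, and 1 LY6 relative passed as lower. With at least 10 counts in every sample, 944 of 15856 genes tested were called higher and 1519 lower. Other clade B serpins then had 1 called lower, membrane proteases 0 lower, kallikreins 1 higher and proteases met by clade B serpins 0 lower, with 3 past the test. Counts divided by 4 gave 945 of 15193 genes tested called higher and 1658 lower. They gave 1 other clade B serpin lower, 1 kallikrein higher and 0 such proteases lower, with 3 past the test. With no filter, 904 of 34756 genes tested were called higher and 1915 lower. In that setting 1 other clade B serpin was called lower, and 1 LY6 relative was called and passed as lower.

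With each sample left out, 970 to 1068 of all genes tested were called higher and 1586 to 2023 lower. Members past the test were 3 to 5 higher and 3 to 4 lower, and members called lower were 0 to 1 (SERPINB8, without shAC007128.1 replicate 1 or shCtrl replicate 3). Called counts ranged over 0 to 1 higher and 0 to 2 lower for plasminogen and inhibitor genes, 1 to 2 lower for coagulation genes, 1 to 2 lower for other clade B serpins, 0 to 2 lower for serpins of other clades, 1 to 2 higher for membrane proteases, 0 to 2 lower for proteases met by clade B serpins and 1 to 2 higher for LY6 relatives. Counts past the test ranged over 5 to 8 higher for docking receptors, 0 to 1 higher for plasminogen and inhibitor genes, 1 to 3 lower for other clade B serpins, 2 to 5 lower for membrane proteases and 3 to 5 lower for proteases met by clade B serpins.

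A replicate block, although the numbers did not pair the samples, left 977 genes called higher and 1692 lower, and members at 1 and 0. Under it, proteases met by clade B serpins had 1 called lower and membrane proteases 2 past the test as lower. The difference in share of the member serpins was -6.345 points for SERPINE2, -4.46 for SERPINB1, -1.531 for SERPINB2 and -2.165 for SERPINB8 without division by length, and -6.837, -4.038 and -1.938 for SERPINE2, SERPINB1 and SERPINB2 with canonical transcript lengths. AC007128.1, at 15 to 69 counts, is limited by depth.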
